A study of Mus musculus with 6 samples.

Results

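The iron and heme handling genes of macrophages were followed in bone marrow-derived macrophages (BMDMs), the cells obtained when mouse bone marrow is cultured with the growth factor-rich medium of L929 cells. They are the 10 genes Tfrc, Steap3, Slc11a2, Slc11a1, Slc40a1, Fth1, Ftl1, Ncoa4, Hmox1 and Blvrb. These were chosen by name for their function, out of 36137 genes quantified, with earlier results of these data known. The wider lists used below were chosen in the same way. Shares over all genes are therefore given for scale and not as a test of the choice. All 10 passed the filter of 10 counts in total that left 18506 genes for testing. WT cells came from LysM-Cre+/- Drp1+/+ mice and Drp1 KO cells from LysM-Cre+/- Drp1fl/fl mice, so both groups carry LysM-Cre, in which the lysozyme M promoter drives Cre recombinase in myeloid cells. The floxed gene, Drp1 (symbol Dnm1l), encodes DRP1, a mitochondrial fission protein. The mice were 8 to 12 weeks old and of both sexes, and the marrow of 2 mice per genotype was pooled. On day 7 the medium was replaced by serum-free medium and the cells were kept at 2.1% oxygen for 8 h, a condition called hypoxia serum starvation (HSS) and used as a culture model of ischemia. For each genotype 3 libraries were sequenced, all after HSS, so the comparison asks how the genes differ between genotypes in this condition and says nothing about the response to HSS. The labels call the libraries biological replicates, but whether each comes from a separate marrow pool is not given in the sources used here, so p-values measure the spread between these libraries.

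Macrophages take up iron bound to transferrin and iron from engulfed red cells, whose heme they open to release the metal. Iron that is not used is stored inside ferritin shells or leaves the cell through ferroportin. Iron regulatory proteins balance these routes by binding a hairpin of mRNA, the iron-responsive element (IRE). Bound in a 5′ untranslated region the hairpin blocks translation of the mRNA, as in ferritin, and bound in a 3′ untranslated region it protects the mRNA from decay, as in the transferrin receptor. RNA levels alone therefore do not give ferritin protein.

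The IREs of the iron genes are shown because they set apart the members whose mRNA carries this control. A 27-base window with a bulged C, any 5 bases and the loop CAGTGN was searched in the annotated transcripts of GRCm39, requiring at least 4 of 5 pairs in the stem below the loop. This loose rule matched 13.2% of 21642 genes. A strict rule, with all 5 of those pairs and at least 4 of the 5 pairs below the bulge, matched 35 genes (0.162%), and 4 of the 10 members were among them: Fth1, Ftl1, Slc40a1 and Tfrc. The windows below run 5′ to 3′ on the transcribed strand, with the bulged C and the loop in capitals.
Fth1: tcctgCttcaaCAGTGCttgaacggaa
Ftl1: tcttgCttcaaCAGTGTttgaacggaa
Slc40a1: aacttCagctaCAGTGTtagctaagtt
Tfrc site 1: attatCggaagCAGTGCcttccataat
Tfrc site 2: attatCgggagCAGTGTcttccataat
Tfrc site 3: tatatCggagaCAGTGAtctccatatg
Tfrc site 4: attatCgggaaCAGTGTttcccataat
Slc11a2: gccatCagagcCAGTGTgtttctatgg
The sites of Fth1 (chr19:9960097-9960123, plus strand), Ftl1 (chr7:45109204-45109230, minus strand) and Slc40a1 (chr1:45964626-45964652, minus strand) lie in 5′ untranslated regions. The Tfrc sites lie in its 3′ untranslated region on the plus strand, at chr16:32450038-32450064, chr16:32450417-32450443, chr16:32450482-32450508 and chr16:32450529-32450555. The Slc11a2 site (chr15:100293035-100293061, minus strand, 3′ untranslated region) met only the loose rule, with 4 pairs under the loop and 1 below the bulge. Slc11a1 also matched the loose rule, in its coding sequence. No match was found in the annotated transcripts of Steap3, Ncoa4, Hmox1 and Blvrb.

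The libraries held 23389488 to 32231206 estimated counts. Dnm1l, which encodes DRP1, was measured at 72.7, 69.9 and 75.1 CPM in WT libraries 1 to 3 and at 58.7, 60.7 and 66.3 CPM in Drp1 KO libraries 1 to 3. CPM values are counts brought to a common library size with TMM scaling factors. All Drp1 KO libraries lay below all WT libraries, with a log2 fold change of -0.23 (SE 0.092) and an adjusted p of 0.248 in edgeR's quasi-likelihood test. The gene total includes reads outside the floxed stretch, so it does not check the deletion itself. The first principal component (46.0% of the variance) separated the genotypes and the second (29.5%) separated libraries 1 of both genotypes from libraries 2 and 3, and the values below are therefore also given without libraries 1 where this matters. All 8 macrophage markers were detected, among them Lyz2, Cd68 and Adgre1. Their summed TPM was 14923 to 15459 in WT, against 12304 to 15285 in Drp1 KO, which overlap; Csf1r and Mertk fell and Fcgr1 rose. Neutrophil markers summed to 93.3 to 161 TPM in WT and 194 to 332 TPM in Drp1 KO libraries, so every Drp1 KO library was higher. Of these 11 markers 8 were tested, all 8 had a positive log2 fold change, 5 met the study's criteria given below and none passed the edgeR adjusted p. Ly6g, a defining marker, was at 0 in every library. Erythroid markers summed to at most 4.79 TPM, with the hemoglobin genes at 0. Dendritic cell, fibroblast and lymphocyte marker sums reached at most 8.92 TPM and overlapped between the groups, with Jchain the only called gene among them (higher in Drp1 KO). The part of such cells in the results below was not tested.

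Of the 10 genes, 3 were called at an adjusted p under 0.05, all lower in Drp1 KO BMDMs: Slc40a1, Tfrc and Blvrb. Of all genes tested, 1.06% were called lower, 2.29% higher and 3.36% in either direction. The study's criteria, which it applied to DESeq2 results, were a log2 fold change beyond 0.32 in either direction and an unadjusted p under 0.05. Here these criteria were applied to the edgeR values. By these criteria Hmox1 joined, which makes 4 lower genes and no higher one. Of all genes 5.48% met them lower, 7.19% higher and 12.7% in either direction. The median log2 fold change was -0.17 for the 10 genes and 0.0046 over the whole table. WT and Drp1 KO libraries were fully apart in 4 genes that were lower and in 1, Steap3, that was higher in Drp1 KO, against 10.3% and 11.7% of all genes (21.9% in either direction). Because these are bulk RNA values, fewer cells of a type and less RNA per cell cannot be told apart.

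**Figure D1:**
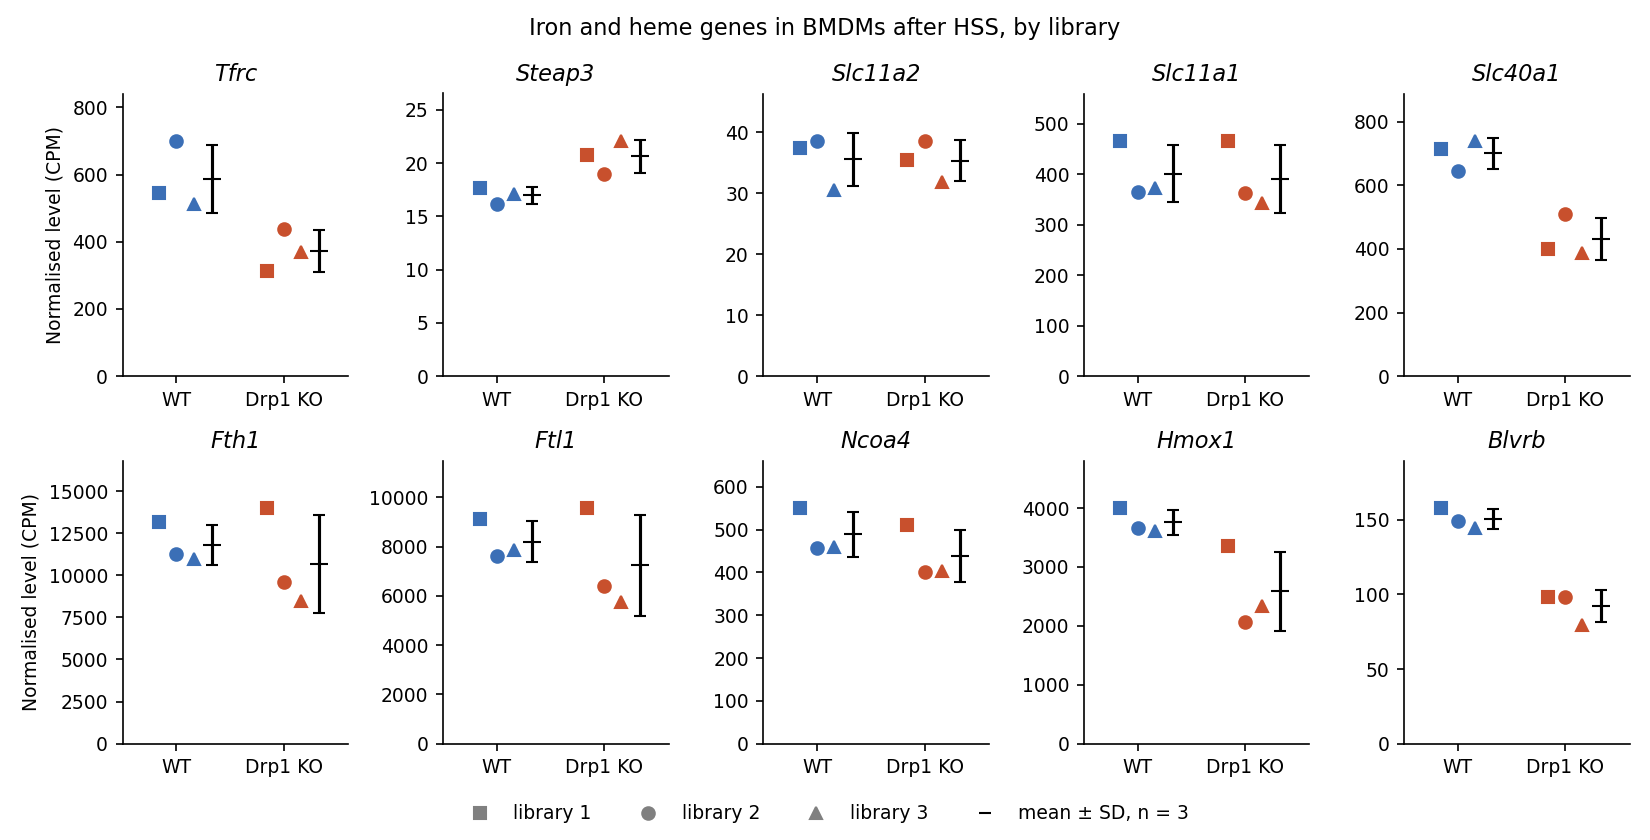
Normalised level in CPM (y axis, from 0) of each iron and heme gene in the 3 WT (blue) and 3 Drp1 KO (orange) libraries, with the marker shape giving the library number and the black bar the mean ± SD. In Tfrc, Slc40a1, Hmox1 and Blvrb every Drp1 KO library lies below every WT library, in Steap3 every Drp1 KO library lies above, and library 1 is the highest of its group in both genotypes for 6 genes, the ferritins among them.

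Iron uptake was the first step examined. Tfrc (chr16:32427556-32451612), the receptor that carries transferrin-bound iron into endosomes, was measured at 546, 701 and 512 CPM in WT libraries 1 to 3 and at 313, 437 and 369 CPM in Drp1 KO libraries 1 to 3. The lowest WT library was above the highest Drp1 KO library, and library 2 was the highest in both groups. Tfrc fell by 0.65 on the log2 scale (SE 0.151, edgeR adjusted p = 0.0456), to 0.636 of the WT level. That call sat close to the threshold. With a single library left out, the edgeR adjusted p became 0.196 (WT 2), 0.0695 (WT 3), 0.0647 (Drp1 KO 1), 0.0637 (Drp1 KO 2) and 0.131 (Drp1 KO 3), with the log2 fold change between -0.77 and -0.52. It was 0.052 with scaling by library size alone and 0.0559 with counts scaled for length.

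Steap3 (chr1:120118487-120200435), the endosomal reductase that turns ferric into ferrous iron, was a low-level gene. It had 17.7, 16.2 and 17.1 CPM in WT and 20.8, 19.0 and 22.1 CPM in Drp1 KO libraries 1 to 3. The groups were apart, with Drp1 KO higher by 0.28 on the log2 scale (SE 0.113), but the edgeR adjusted p was 0.245 and the gene did not pass. Slc11a2 (chr15:100285776-100322953), the ferrous iron transporter DMT1, had 37.4, 38.6 and 30.6 CPM in WT and 35.4, 38.6 and 31.9 CPM in Drp1 KO libraries. These groups overlapped almost fully, with a log2 difference of -0.0086 (SE 0.122, edgeR adjusted p = 0.990). Slc11a1 (chr1:74414303-74425448), the related transporter NRAMP1 of the phagosome membrane, had 466, 365 and 372 CPM in WT and 467, 363 and 342 CPM in Drp1 KO libraries. Its log2 difference was -0.038 (SE 0.141, edgeR adjusted p = 0.949), and library 1 was the highest of each group.

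Slc40a1 (chr1:45947211-45965683), which encodes ferroportin, the iron exporter of the cell surface, was lower in Drp1 KO BMDMs. Its levels were 715, 645 and 740.4 CPM in WT libraries 1 to 3 and 401, 508 and 386 CPM in Drp1 KO libraries 1 to 3. The groups were far apart, since the lowest WT library exceeded the highest Drp1 KO library. Slc40a1 fell by 0.70 on the log2 scale (SE 0.123, edgeR adjusted p = 0.0144), to 0.617 of the WT level. The edgeR adjusted p was 0.0728 when WT library 3 was left out (log2 fold change -0.67) and 0.0585 when Drp1 KO library 3 was (-0.62).

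The import gene and the export gene were thus both lower in Drp1 KO. The ratio of Tfrc to Slc40a1, both in TPM (the authors' abundance unit, which accounts for transcript length), was 0.643 ± 0.155 in WT and 0.650 ± 0.0648 in Drp1 KO libraries (SD, n = 3, exact two-sided permutation p = 0.9). In WT library 2 it was 0.820, higher than in any other library, and it was 0.572 and 0.536 in WT libraries 1 and 3. In Drp1 KO libraries 1 to 3 it was 0.588, 0.645 and 0.718. The log2 difference of the ratio was 0.038, and the smallest p that 3 against 3 libraries can give is 0.1.

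Storage genes were the most abundant. Fth1 (chr19:9957911-9962462) encodes the ferritin heavy chain, which oxidises iron. It had 13153, 11262 and 10974 CPM in WT and 13986, 9618 and 8465 CPM in Drp1 KO libraries 1 to 3. Ftl1 (chr7:45107367-45109308) encodes the light chain, which helps the iron core form, and had 9140, 7609 and 7862 CPM in WT and 9566, 6403 and 5756 CPM in Drp1 KO libraries. In both genes library 1 was the highest of each group, and Drp1 KO library 1 was above every WT library while Drp1 KO libraries 2 and 3 were below every WT library. The log2 fold change was -0.14 (SE 0.180) for Fth1 and -0.18 (SE 0.182) for Ftl1, with edgeR adjusted p of 0.790 and 0.714, so neither passed.

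The ferritin values depended on libraries 1. With both libraries 1 left out, the log2 fold change was -0.30 for Fth1 (edgeR adjusted p = 0.105) and -0.35 for Ftl1 (edgeR adjusted p = 0.0558). Both chains together held 4.43%, 3.76% and 3.95% of all TPM in WT libraries 1 to 3 and 4.24%, 3.19% and 2.85% in Drp1 KO libraries 1 to 3. The ratio of heavy to light chain TPM was 2.24, 2.31 and 2.19 in WT and 2.27, 2.52 and 2.38 in Drp1 KO libraries, and the groups overlapped (log2 difference 0.090, exact two-sided permutation p = 0.2). Over estimated counts instead of TPM the ratio was lower, 1.44 ± 0.0421 in WT and 1.48 ± 0.0211 in Drp1 KO (SD, n = 3). Annotated ferritin pseudogenes took estimated counts equal to 0.0592% to 0.0804% of those of Fth1 and 0.428% to 0.586% of those of Ftl1. Reads shared with these near-identical copies could be split between them in either direction. The error this gives the ferritin values was not measured, and these shares do not bound it.

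Ncoa4 (chr14:31881822-31902234), the receptor that delivers ferritin to the lysosome for iron release, had 550.2, 457 and 460.1 CPM in WT libraries. In Drp1 KO libraries it had 509.7, 402 and 404 CPM. Each Drp1 KO library was below the WT library of the same number, but the groups overlapped (log2 fold change -0.16, SE 0.124, edgeR adjusted p = 0.617).

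Heme breakdown held the gene with the smallest p of the 10. Blvrb (chr7:27147275-27165569), biliverdin reductase B, which acts on products of heme opening and on flavins, had 158, 149 and 144 CPM in WT and 98.6, 98.2 and 79.6 CPM in Drp1 KO libraries 1 to 3. The spread within each group was small beside the gap between them. Blvrb fell by 0.71 on the log2 scale (SE 0.107, edgeR adjusted p = 0.0064), to 0.612 of the WT level. It passed in all 16 other settings tried, with an adjusted p of at most 0.0431.

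Hmox1 (chr8:75820241-75827217) encodes heme oxygenase 1, the inducible enzyme that opens the heme ring and frees its iron. It had 3999, 3663 and 3617 CPM in WT libraries 1 to 3 and 3348, 2071 and 2339 CPM in Drp1 KO libraries 1 to 3. All Drp1 KO libraries lay below all WT libraries, and Drp1 KO library 1 was well above the other two of its group. The log2 fold change was -0.54 (SE 0.166), and the edgeR adjusted p of 0.123 did not pass. The call changed with the treatment of the libraries. With the library number as a block the log2 fold change was -0.57 (edgeR adjusted p = 0.0046), with both libraries 1 left out it was -0.73 (0.0027), and with Drp1 KO library 1 alone left out it was -0.78 (0.0070). DESeq2 gave -0.55 (adjusted p = 0.0209), and edgeR with no filter beyond 1 count gave -0.55 (adjusted p = 0.0177). The other 11 settings tried did not pass, and the adjusted p reached 0.346.

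**Figure D2:**
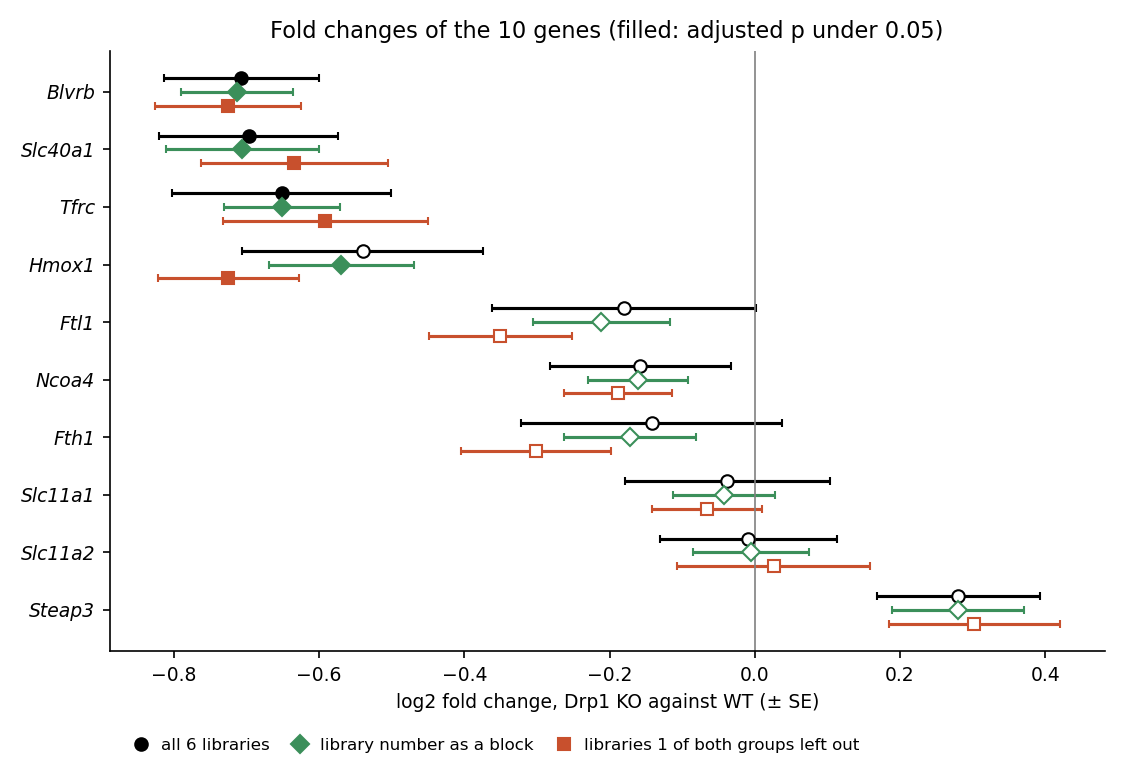
Log2 fold change of Drp1 KO against WT (x axis, ± SE) for each of the 10 genes under 3 edgeR fits: all 6 libraries, the library number as a block, and libraries 1 of both groups left out; filled symbols have an adjusted p under 0.05. Blvrb, Slc40a1 and Tfrc are filled in all 3, Hmox1 only in the latter 2, and the ferritin values move from -0.14 and -0.18 to -0.30 and -0.35 without libraries 1.

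Libraries of the same number were also set against each other. The log2 ratio of Drp1 KO to WT CPM within numbers 1, 2 and 3 was -0.26, -0.82 and -0.63 for Hmox1, and -0.84, -0.34 and -0.94 for Slc40a1. It was -0.80, -0.68 and -0.47 for Tfrc and -0.68, -0.60 and -0.86 for Blvrb. In all, 5 genes were lower in each of the 3 pairs, the fifth being Ncoa4, and Steap3 was higher in each (0.23, 0.23 and 0.37). Over all genes, 22.1% were lower and 23.7% higher in each of the 3 pairs. For Fth1 the ratio was 0.089 in number 1 and -0.23 and -0.37 in numbers 2 and 3.

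Levels were compared between genes in TPM. In WT BMDMs the order of mean levels was Fth1 (27981 ± 2327 TPM), Ftl1 (12482 ± 1159), Hmox1 (3461 ± 131), Ncoa4 (471 ± 47.6), Slc40a1 (356 ± 37.4), Slc11a1 (329 ± 32.3), Blvrb (299.9 ± 6.26), Tfrc (225 ± 35.3), Slc11a2 (17.8 ± 1.05) and Steap3 (7.35 ± 0.488), each as mean ± SD of 3 libraries. The ranges of Slc40a1 and Slc11a1 overlapped, as did those of Slc11a1 and Blvrb, while the other neighbours did not. In Drp1 KO BMDMs Slc40a1, at 207 ± 36.0 TPM, ranked below Slc11a1, at 296 ± 45.8 TPM, and these ranges were apart. Blvrb at 167 ± 13.0 TPM and Tfrc at 135 ± 26.7 TPM overlapped there. The other positions were those of WT, with Hmox1 at 2223 ± 512 TPM and Steap3 at 8.56 ± 0.677 TPM. A large part of the Fth1 TPM was assigned to a transcript model of 592 bases, shorter than Fth1-201, which raises TPM for a given count.

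Transcripts of the 10 genes were compared by their share of the gene's TPM. Of the 27 transcripts with at least 5% of a gene in at least 1 library, 9 had shares that did not overlap between the groups. The share over all genes was taken only for genes with a mean of at least 10 TPM, where 22.9% of the transcripts did not overlap. On that footing the count was 9 of 23, since the 4 transcripts of Steap3 belong to a gene below 10 TPM. The smallest exact two-sided permutation p is 0.1, and all 9 had that value, before any adjustment over the 27. kallisto divides reads between transcripts that share most of their sequence, so these shares are estimates whose own error was not used here. Exons, starts and ends below come from an annotation later than the authors' index, in which some models have other lengths, among them Fth1-209 (592 bases quantified, 674 annotated) and Blvrb-202 (782 and 942).

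Blvrb-202 starts at chr7:27151843, downstream of the start of Blvrb-201 at chr7:27147275, and held most of the gene. Its share was 83.4%, 80.5% and 80.7% in WT and 78.5%, 77.8% and 74.9% in Drp1 KO libraries 1 to 3. Its level was 245 TPM in WT and 129 TPM in Drp1 KO (means of 3), with every Drp1 KO library lower, and Blvrb-201 was also lower in every Drp1 KO library, at 16.6 against 27.3 TPM. Blvrb-204, a shorter model from the upstream start, had mean levels of 17.1 TPM in WT and 15.6 TPM in Drp1 KO, which overlapped, and its share was higher in every Drp1 KO library.

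Fth1 reads were divided between Fth1-201, the longer model, and Fth1-209, which in the annotation ends inside the last intron of Fth1-201. The share of Fth1-201 was 46.4%, 49.7% and 50.7% in WT and 45.7%, 37.0% and 40.1% in Drp1 KO libraries 1 to 3. Drp1 KO library 1 lay just below the WT range and the other 2 Drp1 KO libraries lay well below it. Fth1-209 showed the reverse, with 52.3%, 49.0% and 47.9% in WT and 53.1%, 62.0% and 59.0% in Drp1 KO. Ftl1-201 held 95.9%, 94.9% and 94.8% of Ftl1 in WT and 98.0%, 97.8% and 97.2% in Drp1 KO. The remainder was mostly Ftl1-202, annotated as a target of nonsense-mediated decay, which fell just short of the share needed and is named after its values were seen. Its mean level was 554 TPM in WT and 203 TPM in Drp1 KO, with all Drp1 KO libraries lower.

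Slc11a1-211, which has 14 exons where Slc11a1-201 has 15, held 5.29%, 6.17% and 5.32% of Slc11a1 in WT and 2.76%, 2.38% and 2.62% in Drp1 KO libraries. The level of the whole gene hardly differed, as given above. Slc11a2-205, the transcript with the IRE window, held 24.9%, 28.4% and 21.6% of Slc11a2 in WT and 17.9%, 22.8% and 24.9% in Drp1 KO libraries, and Slc11a2-201, in which the window was not found, held 49.5%, 53.2% and 54.7% against 51.8%, 58.8% and 55.7%. Both overlapped between the groups. Slc11a2-206, a retained-intron model, was lower in every Drp1 KO library, at 0.67 against 1.77 TPM on average. It rested on few reads, with 17.6, 14.6 and 17.8 estimated counts in WT libraries 1 to 3. In Drp1 KO libraries 1 to 3 it had 2.29, 14.7 and 7.96, so the unscaled counts overlapped. Ncoa4-203 had a lower share and Ncoa4-211, a short model without a coding sequence, a higher share in every Drp1 KO library. They have 462 and 294 bases, and a short length raises TPM for a given count. Over estimated counts Ncoa4-203 held only 1.28% to 2.12% and Ncoa4-211 only 1.56% to 2.91% of the gene. Hmox1-201, Slc40a1-201 and Tfrc-201 held at least 88.3% of their genes in every library, and their shares overlapped.

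**Figure D3:**
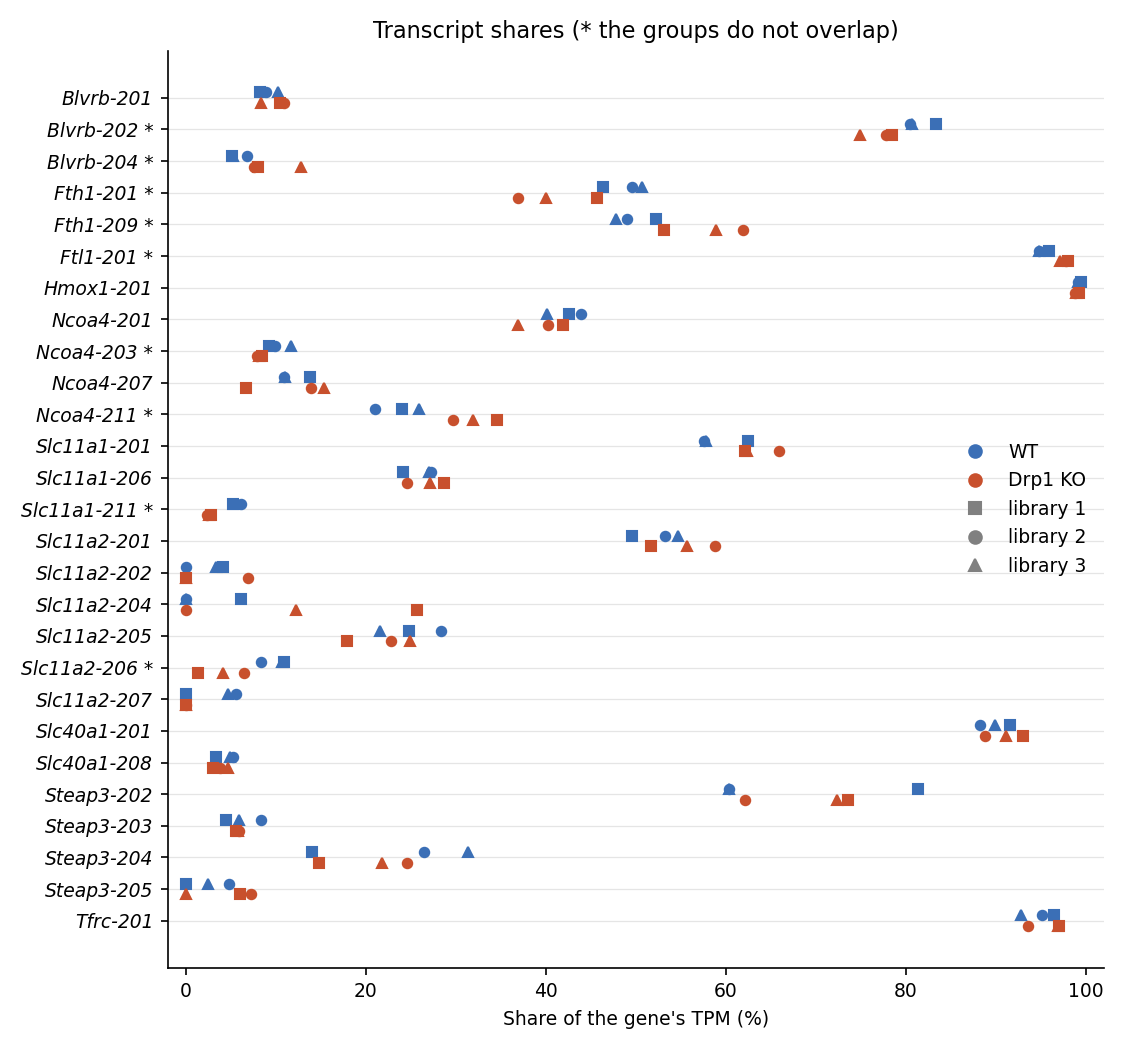
Share of the gene's TPM (x axis, percent) held by each of the 27 transcripts, with WT libraries in blue, Drp1 KO libraries in orange and marker shapes for library numbers; an asterisk marks the 9 transcripts whose groups do not overlap. Blvrb-202 lies at 80.5% to 83.4% in WT and 74.9% to 78.5% in Drp1 KO, and Fth1-201 and Fth1-209 move apart most in Drp1 KO libraries 2 and 3.

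Other genes of iron and heme handling were examined in 5 lists of 71 genes, of which 66 were tested. In these, 2 genes fell and 2 rose at an adjusted p under 0.05, against 3.36% of all genes in either direction, and the median log2 fold change was 0.020. A sixth list held 10 targets of NRF2 and BACH1 outside iron handling, which brings the genes tested to 76, the calls to 5 and the median to -0.060. With the library number as a block, 20 of the 76 were called (8 higher and 12 lower), where 12.0% of all genes were called.

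In the list of iron uptake and lysosomal release, 1 of 10 tested genes was called. Trf, which encodes transferrin, the iron carrier that binds the product of Tfrc, had 386, 317 and 361 CPM in WT and 191, 145 and 145 CPM in Drp1 KO libraries 1 to 3. Trf fell by 1.15 on the log2 scale (SE 0.131, edgeR adjusted p = 0.0012). With counts scaled for transcript length its log2 fold change was -0.56 and the adjusted p 0.0792. The list's median was -0.022.

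Of 12 genes for heme and hemoglobin uptake, transport and breakdown, 1 rose. Flvcr1, described as a heme exporter and also as a choline transporter, had 111, 111 and 119.6 CPM in WT and 157, 147 and 166 CPM in Drp1 KO libraries (log2 fold change 0.46, SE 0.091, edgeR adjusted p = 0.0236). With a library left out its edgeR adjusted p was 0.168 (WT 2), 0.101 (WT 3), 0.0543 (Drp1 KO 2) and 0.0801 (Drp1 KO 3). Hmox2 and Blvra, the sister enzymes of Hmox1 and Blvrb, and Cd163, the scavenger receptor for hemoglobin bound to haptoglobin, were looked at after their values were seen. Hmox2 had 134, 112 and 105 CPM in WT and 103, 96.1 and 84.7 CPM in Drp1 KO libraries (log2 fold change -0.31, edgeR adjusted p = 0.221). Blvra had 113, 95.4 and 87.5 CPM in WT and 85.2, 80.6 and 73.2 CPM in Drp1 KO libraries (-0.31, edgeR adjusted p = 0.205). Cd163 was a low-level gene, at 2.41, 1.46 and 1.74 CPM in WT and 0.409, 0.855 and 0.736 CPM in Drp1 KO libraries (-1.45, edgeR adjusted p = 0.0572). None of these 3 passed. They were the 3 genes of the 12 whose Drp1 KO libraries all lay below the WT libraries, against 10.3% of all genes, and 2 of the 12 were apart in the other direction.

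Heme synthesis genes had a median of -0.0088, and 1 of 11 rose. Tmem14c, a mitochondrial membrane protein needed to bring the heme precursor into the matrix, had 24.5, 23.2 and 21.4 CPM in WT and 31.4, 31.8 and 30.5 CPM in Drp1 KO libraries (log2 fold change 0.44, SE 0.102, edgeR adjusted p = 0.0465). The call was lost when WT library 2 (edgeR adjusted p = 0.212), WT library 3 (0.245), or Drp1 KO library 1 (0.0678), 2 (0.158) or 3 (0.0982) was left out. It was also lost with median of ratios size factors (0.0577) and with counts scaled for length (0.105). In the list for mitochondrial iron import and iron-sulfur cluster assembly, with a median of 0.079, 1 of 21 tested genes fell. Bola3, a mitochondrial factor of iron-sulfur cluster transfer, had 26.8, 29.4 and 24.3 CPM in WT and 16.9, 15.6 and 11.7 CPM in Drp1 KO libraries (log2 fold change -0.87, SE 0.149, edgeR adjusted p = 0.0121). With counts scaled for length it had -0.47 and an adjusted p of 0.215. Leaving out WT library 2 gave an edgeR adjusted p of 0.0791, and leaving out Drp1 KO library 2 gave 0.0507.

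Among 12 tested iron sensors and regulators none passed the adjusted p in edgeR, and the median was -0.010. By the study's criteria 2 were higher, Spic and Cp, and none was lower. Of all genes 7.19% met these criteria higher and 5.48% lower. Aco1, named after its values were seen, also had an unadjusted edgeR p under 0.05, for which alone no share over all genes was taken. The 2 with the smallest p were Spic and Cp. Spic, a transcription factor of iron-recycling macrophages, had 33.6, 23.1 and 20.8 CPM in WT and 37.2, 45.2 and 37.4 CPM in Drp1 KO libraries (log2 fold change 0.63, SE 0.173, edgeR adjusted p = 0.0854). Cp, ceruloplasmin, which oxidises iron as it leaves the cell, had 45.1, 28.6 and 25.9 CPM in WT and 54.0, 46.7 and 58.8 CPM in Drp1 KO libraries (0.68, SE 0.190, edgeR adjusted p = 0.0914). In both genes WT library 1 was the highest of its group. With the library number as a block the edgeR adjusted p was 0.0114 for Spic and 0.0079 for Cp. Both also passed with DESeq2 (adjusted p = 0.019 and 0.0177), with no filter beyond 1 count, when WT library 1 was left out (log2 fold changes 0.86 and 0.96) and when both libraries 1 were.

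Hmox1, Slc40a1, Blvrb and the ferritin genes are known targets of the transcription factor NRF2 and of BACH1, a repressor that heme inactivates. Of 10 further targets outside iron handling, 9 had a log2 fold change below 0, 5 had all Drp1 KO libraries below all WT libraries (10.3% of all genes), and the median was -0.25. One, Txnrd1, passed: this thioredoxin reductase had 889, 793 and 758 CPM in WT and 631, 519 and 473 CPM in Drp1 KO libraries (log2 fold change -0.59, SE 0.124, edgeR adjusted p = 0.0317). With a library left out its edgeR adjusted p was 0.0591 (WT 1), 0.127 (WT 2), 0.0856 (WT 3), 0.136 (Drp1 KO 2) and 0.0997 (Drp1 KO 3). The genes of the factors themselves, Nfe2l2 (NRF2) and Bach1, had log2 fold changes of -0.069 and 0.043 with edgeR adjusted p of 0.868 and 0.920.

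**Figure D4:**
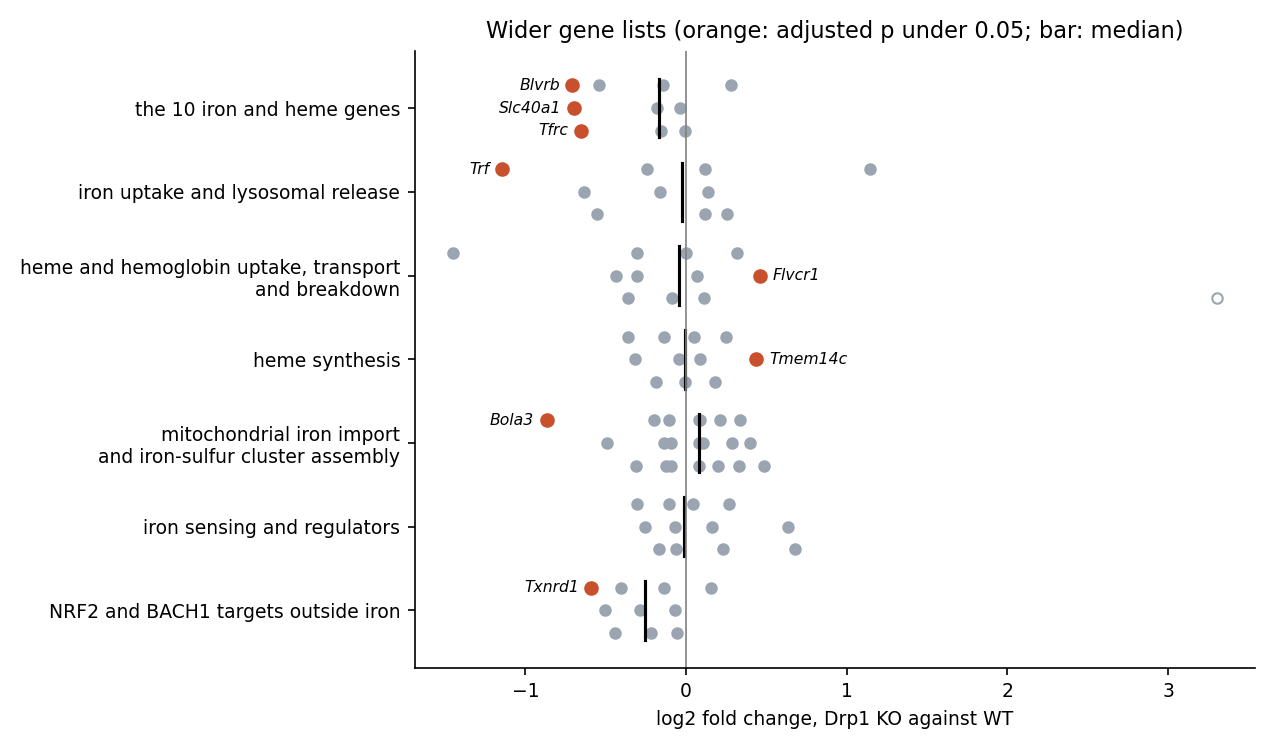
Log2 fold change of Drp1 KO against WT (x axis) for the 10 iron and heme genes and the tested genes of the 6 wider lists, with orange points for an adjusted p under 0.05 and a bar at each list's median. The medians are -0.17 for the 10 genes and -0.25 for NRF2 and BACH1 targets and lie between -0.044 and 0.079 in the other lists; the open point is Hpx, with at most 3 counts in each WT library, whose fold change is no measure of size.

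Promoter sequence was available from RefSeq (GRCm38.p6) for 7 of the 10 genes, with 15 start sites. Windows from 250 bases before to 50 after a start were searched on both strands for the antioxidant response element TGACNNNGC and for the hypoxia response element cores ACGTG and GCGTG. The first was found in 1 of 15 windows, of Ncoa4, against 12.4% of 32851 windows of all genes. ACGTG was found in 5 of 15 (19.6% of all windows) and GCGTG in 9 of 15 (32.4%). Several windows belong to the same gene and some overlap, so the 15 are not separate observations. The ACGTG windows were those of Blvrb, Ncoa4 and Tfrc only, and the windows of Tfrc share 1 ACGTG site. The 250 bases before a start are shown for Blvrb and Tfrc, the called genes with an entry, with matches to these motifs on either strand in capitals. The Blvrb window belongs to the downstream of its start sites (chr7:27452168-27452417, GRCm38.p6, plus strand), and the Tfrc window to the upstream of its start sites (chr16:32608646-32608895, GRCm38.p6, plus strand).
Blvrb: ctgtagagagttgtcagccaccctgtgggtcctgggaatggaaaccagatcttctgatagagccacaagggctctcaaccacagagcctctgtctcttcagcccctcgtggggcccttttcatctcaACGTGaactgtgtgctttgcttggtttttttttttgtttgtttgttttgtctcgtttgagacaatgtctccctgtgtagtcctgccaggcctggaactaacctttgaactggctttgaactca
Tfrc: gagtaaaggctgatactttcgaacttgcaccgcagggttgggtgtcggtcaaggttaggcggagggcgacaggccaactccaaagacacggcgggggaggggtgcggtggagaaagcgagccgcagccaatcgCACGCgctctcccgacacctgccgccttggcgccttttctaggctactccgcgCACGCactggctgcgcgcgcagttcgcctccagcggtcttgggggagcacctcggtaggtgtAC
The last capitals of the Tfrc window are the start of an ACGTG that runs across the start site. These matches are letters only, since every library was made after HSS and no binding was measured.

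The genes whose pattern over the 6 libraries was most like that of Hmox1 and of Slc40a1 were taken from 7951 genes averaging 10 CPM or more, by the root mean square difference of centred log2 CPM. For Hmox1 they were Fam20c (0.058), Smc1a (0.082), Tshz1 (0.084), Aldh2 (0.086) and Mras (0.087). Fam20c had 134, 129 and 118 CPM in WT and 116, 64.6 and 79.7 CPM in Drp1 KO libraries 1 to 3, which follows Hmox1 also in the high Drp1 KO library 1. For Slc40a1 they included Selenop (0.098), Gsta3 (0.128), Blvrb (0.128) and Hebp1 (0.128). Selenop had 4225, 4480 and 4939 CPM in WT and 2626, 3140 and 2795 CPM in Drp1 KO libraries, and Blvrb is itself one of the 10 genes.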

How the data were processed

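Poly(A) RNA of 3 WT and 3 Drp1 KO BMDM libraries was sequenced. The authors quantified reads with kallisto 0.46.1 against Ensembl cDNA of GRCm39 and deposited, for each transcript, an estimated count (not scaled between libraries) and a TPM value. The labels and the study's methods differ in the oxygen level, the share of L929 medium and the RNA kit. Whether kallisto used strand is not given in the sources used here. Here 116159 of 116873 transcripts (99.4%) matched GENCODE genes, and 0.542% to 0.575% of counts did not. Estimated counts were added per gene, rounded, filtered at 10 counts in total and tested with edgeR 4.0.16 (TMM, quasi-likelihood, no covariate), adjusted over 18506 genes by Benjamini-Hochberg. SE is the fold change over the root of F. The depth is 23389488 to 32231206 counts, where 3 counts are 0.0917 to 0.136 CPM. Same-numbered libraries correlated in their deviations at 0.510, 0.204 and 0.298 over 12248 genes, each over 0.1. On that ground the library number was used as a block in an alternative fit. The main test took no account of it. WT 2 correlated more with Drp1 KO 3 (0.326), and no label says what a number marks. No library was a copy of another (chi-square per degree of freedom at least 10.4). On simulated counts 66% of 200 genes changed 2-fold were recovered (98.9% of 88 with a mean of at least 500 counts), with 11 false calls among 18147 genes.

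The 10 genes and the lists were chosen with earlier results of these data known. Named genes were the 10, Dnm1l, each list's genes with an adjusted p under 0.05 or else the 2 of smallest p, the 5 genes most like Hmox1 and Slc40a1, and transcripts over 5%; some items are not reported here. Alternatives were DESeq2 1.42.0, limma-voom (limma 3.58.1), other scalings and filters, length-scaled counts, ferritin pseudogene reads, the block and each library left out; leaving out both libraries 1 was chosen after seeing the data. IREs were searched in a later annotation than the authors' index.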

Additional observations from a re-analysis of the deposited data

How the results depend on the processing

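No change of the ferritin genes was called with 3 libraries a group. Their SE was 0.180 and 0.182 on the log2 scale, with the lowest library at 5756 CPM. In the counts of called genes, the 10 genes gave 1 to 3 calls with a library left out, against 3 with all; the lowest count came without WT library 3 or Drp1 KO library 3, where Blvrb remained. The 6 wider lists, NRF2 and BACH1 targets included, gave 5 calls, and 12 with DESeq2, 11 with no filter beyond 1 count, 3 with length-scaled counts, 20 with the replicate block, 16 without both libraries 1 and 1 to 8 with a library left out; over all genes the calls went from 621 to 1155, 1065, 462, 2212 and 1880 in the first 5 of these and to between 181 and 904 with a library left out. The block changed the calls of Hmox1, Spic and Cp given above and of no other gene named among the 10 or by rule in the lists. The number of transcripts with shares apart ran from 9 to 14 with a library left out, where fewer libraries make separation easier. The log2 difference of the Tfrc to Slc40a1 ratio ran from -0.080 to 0.23. Fth1, Slc11a1 and Slc11a2, which no setting called, changed sign in some settings. With a library left out, Fth1 ran from -0.39 to 0.0043, Slc11a1 from -0.20 to 0.082 and Slc11a2 from -0.12 to 0.065. Slc11a2 had 0.023 with length-scaled counts and 0.026 without both libraries 1. Ftl1 and Ncoa4 kept their sign but not their size. With a library left out, Ftl1 ran from -0.44 to -0.036 and Ncoa4 from -0.29 to -0.067. Transcript shares that changed sign ran, in percentage points, from -1.54 to 2.79 for Ncoa4-207, from -0.366 to 1.74 for Slc11a1-206, from -2.48 to 0.984 for Slc11a2-202, from -1.54 to 9.0 for Steap3-202, from -1.37 to 0.568 for Steap3-203 and from -8.46 to 0.17 for Steap3-204. The count by the study's criteria was 4 to 6 genes under its 16 alternatives, and the heavy to light ratio kept its direction under the 8 run for it. The cause of these shifts was not tested.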
